A study of Mus musculus with 12 samples.

Results

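The 6 libraries described here were selected on the measured level of the caudal gene Hoxa5, which was under 1 CPM in each of them (CPM are a library's counts scaled to a common total, here with edgeR's TMM factors). They are 6 of the 12 brain RNA-seq libraries of the series and are called Hox-low below. The other 6 are called Hox-high. The series compared mouse embryos that lack Nsd2 (KO) with wild-type embryos (WT) on a C57BL/6 background at E15.5, in females and males. The KO allele is a constitutive CRISPR/Cas9 deletion of the whole Nsd2 coding sequence, so every cell of the KO embryos carries it. The Hox-low WT group held female 1, female 2 and male 1, and the Hox-low KO group held female 1, male 1 and male 3. Female and male libraries came in separate count tables, so table and sex cannot be told apart, and sex was a term in each fit.

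NSD2 is a histone methyltransferase that adds mono- and dimethyl marks to lysine 36 of histone H3, marks found across gene bodies and in intergenic chromatin. Hox genes are transcription factors of the body axis, and in the embryonic neural tube their RNA is made in the hindbrain and spinal cord and not in the forebrain or midbrain. Hoxa5 RNA thus marks tissue from the caudal hindbrain backwards. In neurons of this age, genes for synaptic adhesion, neurotransmitter receptors and ion channels are coming on.

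Hoxa5 chose the libraries, so its values are a description. It was at 0.128, 0.0760 and 0.870 CPM in WT female 1, WT female 2 and WT male 1, and at 0.182, 0.0887 and 0 CPM in KO female 1, KO male 1 and KO male 3. WT male 1 is the library nearest the limit from below, and the nearest above it is KO male 2, well clear at 13.1 CPM. The remaining 5 libraries were between 38.1 and 53.7 CPM. The summed level of 39 Hox genes, 11 of them at 0 in all 6 libraries, was 1.24 to 26.7 CPM in Hox-low WT and 1.15 to 7.88 CPM in Hox-low KO, against 74.1 to 301 CPM in the Hox-high libraries.

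The low Hox level did not mean that the 6 libraries held one and the same part of the brain. Summed markers of the hindbrain and spinal cord other than Hox genes were at 662, 387 and 379 CPM in the WT libraries and at 326.5 to 358.5 CPM in the KO libraries, without overlap (exact permutation test, two-sided, n = 3 and 3, p = 0.1, the smallest this design allows). The same sum was 297.2 to 523.5 CPM in the Hox-high libraries. It thus did not follow the Hox level and is not read as an amount of caudal tissue. None of the 25 tested genes of that list passed the test, 24 of them had a negative fold change, and the median log2 fold change was -0.61. That median was -0.33 without WT female 1, -0.32 without WT male 1 (15 of 25 negative), -0.37 without KO male 3 and -1.14 without KO female 1. Sensory neuron markers (WT 292.5 to 359.4, KO 279.8 to 292.0 CPM) and pan-neuronal markers (WT 9042 to 9478, KO 8564 to 9007 CPM) also did not overlap, with the same p of 0.1. WT female 1 had the highest midbrain sum, 909 CPM against 329 to 551 CPM in the other 5 libraries, and the lowest forebrain sum, 1054 CPM against 1165 to 1664 CPM. Summed radial glia, microglia, endothelial, erythroid, meningeal and choroid plexus markers overlapped between the genotypes. Members of a list could still share a direction. Fold changes were negative for 12 of 13 tested meningeal, 10 of 11 choroid plexus and 15 of 16 midbrain genes (medians -0.37, -0.25 and -0.44). Interneuron and forebrain lists leaned the other way, with 6 of 18 and 3 of 15 negative (medians 0.43 and 0.18). Radial glia, endothelial, erythroid and microglia medians were 0.06, 0.03, 0.27 and -0.15. Beyond Neurod4 and Ugt8a, described below, no gene of the cell type and region lists passed the test. The part of these differences in the results that follow was not tested.

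**Figure D1:**
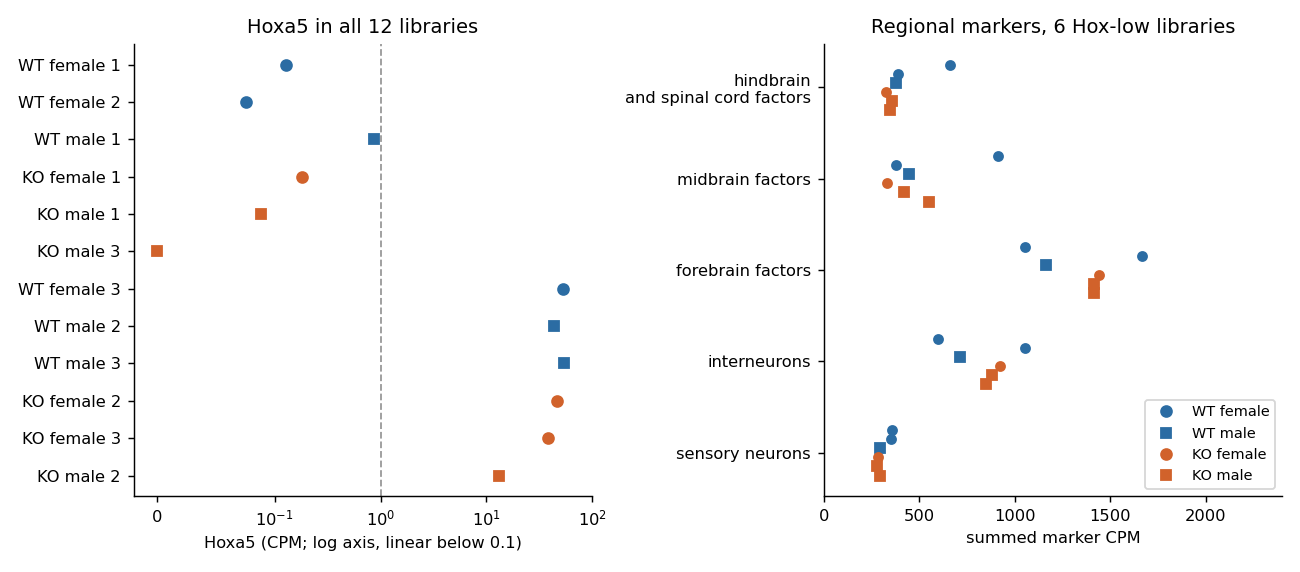
Left: Hoxa5 in CPM (log axis, linear below 0.1) for all 12 libraries, with the dashed line at the 1 CPM limit. Right: summed CPM of 5 regional marker lists in the 6 Hox-low libraries, 1 point per library, with circles for females and squares for males. WT female 1 stands apart with 909 CPM of midbrain markers, and all 3 KO libraries lie below all 3 WT libraries for hindbrain and spinal cord factors.

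KO female 1 also stood apart from the other Hox-low libraries in a few genes that were picked after their values were seen. Gm9855 was at 34.5 CPM there and at 2.08 to 2.64 CPM in the other 5 Hox-low libraries, and Ttc30a2 was at 0 there and at 2.28 to 3.90 CPM in the others. The Hox-high library KO female 2 shared both traits, with Gm9855 at 15.7 CPM and Ttc30a2 at 0. The Hox-high library KO female 3 did not, with Gm9855 at 2.70 CPM and Ttc30a2 at 2.09 CPM. KO female 1 is the only Hox-low KO female, so its values carry the whole of the female contrast. The effect of genotype differed between the sexes for 15 of 18896 tested genes (0.0794%), these among them, and for none of the 41 genes called for genotype below. The library totals were 40398665 to 58904269 counts and did not differ detectably between genotypes (exact permutation test, two-sided, p = 0.5, the smallest possible being 0.1).

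Nsd2, the deleted gene, which the tables name Whsc1 (chr5:33820725-33897975, plus strand, GRCm38), checked the labels. It was at 410, 413.1 and 378.2 CPM in the WT libraries and at 1.46, 1.33 and 1.27 CPM in the KO libraries. Its log2 fold change, KO over WT, was -8.16 ± 0.09 (SE, n = 3 and 3), with an adjusted p of 1.41e-08. Here and below, an adjusted p comes from the quasi-likelihood test of edgeR, is adjusted by Benjamini-Hochberg over all tested genes and is called at 0.05, and a fold change is KO over WT on the log2 scale with its standard error. Actb, the cytoskeletal actin used as a reference, had a log2 fold change of 0.07 ± 0.11 and an adjusted p of 0.924. None of the 14 tested genes for other enzymes that write or erase H3K36 methylation passed the test, and none had its WT and KO libraries apart. Their median log2 fold change was 0.01, and the 2 most abundant of them, Nsd1 and Setd2, differed by 0.00 ± 0.11 and 0.01 ± 0.09. Within the sexes, the log2 difference of Nsd1 was -0.23 in females and 0.22 in males. That of Setd2 was -0.17 in females and 0.18 in males.

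Leaving Nsd2 aside, 34 of 18896 tested genes fell in Hox-low KO brain (0.18%) and 7 rose (0.037%), 41 in all (0.217%). The shares of 0.18% and 0.037% are the background for the counts of called genes in each list below. The genes that fell included 4 genes of the synaptic adhesion list (Csmd1 among them), 3 glutamate receptor genes, 1 GABA receptor subunit, 2 potassium channel subunits and 2 adenylyl cyclases, and the others were spread over further classes or over none of the lists. The genes that rose included 5 members of the protocadherin beta cluster and Nab2. At an unadjusted p under 0.05, 891 genes were lower (4.72%) and 509 higher (2.69%). DESeq2 called 190 lower (1.01%) and 45 higher (0.238%), including all 41. The counts rested on single libraries: 2 genes fell and none rose when KO female 1 was left out, 6 fell and none rose when KO male 1 was, 10 fell and 1 rose when KO male 3 was, and 14 fell and 15 rose when WT male 1 was. With sex as a term, leaving out KO female 1 leaves 1 WT male against 2 KO males to give the genotype effect. Leaving out WT male 1 leaves 2 WT females against 1 KO female. Those fits thus lose the contrast of a whole sex, and the part of that loss in their counts was not tested. In bulk brain RNA, fewer cells of a type and less RNA per cell cannot be told apart.

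Lrfn5 and Grin3a were the genes of smallest p and the ones that stayed past the threshold whichever of the 6 libraries was left out. Lrfn5 (chr12:61523150-61858342, plus strand) encodes a leucine-rich repeat adhesion molecule of synapses. It was at 67.1, 68.7 and 65.3 CPM in WT female 1, WT female 2 and WT male 1, and at 21.8, 17.5 and 14.8 CPM in KO female 1, KO male 1 and KO male 3. The WT libraries lay close together and every KO library was below them, with the female KO library highest of the 3. The log2 fold change was -1.82 ± 0.11 (adjusted p = 0.00245).

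Grin3a (chr4:49661611-49845744, minus strand) encodes the GluN3A subunit of NMDA receptors, which is made mainly in the young brain. Its levels were 79.3, 75.7 and 78.5 CPM in WT and 35.4, 30.5 and 31.2 CPM in KO, in the same library order. Again the groups did not overlap, and the spread within each group was small beside the gap, at a log2 fold change of -1.23 ± 0.08 (adjusted p = 0.00245). A further gene, Ppp3r2, lies within the Grin3a span on the same strand.

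Among the other genes of the synaptic adhesion list, Csmd1, Slitrk4 and Cntnap5c fell. Csmd1 (chr8:15892537-17535586, minus strand), a very large transmembrane protein with complement-like domains, was at 52.0, 53.9 and 26.7 CPM in WT and at 22.6, 13.6 and 13.4 CPM in KO. WT male 1 and KO female 1 lay close together here, and the gap was plainer within each sex (log2 difference -1.23 in females and -0.98 in males). The adjusted p was 0.00514, and it was 0.0693 without KO female 1. Slitrk4, a leucine-rich repeat adhesion protein of neurons, went from 29.4, 24.9 and 25.4 CPM to 12.8, 11.0 and 9.84 CPM (log2 fold change -1.18 ± 0.11). Cntnap5c, a neurexin-family member, was the least abundant of the 4, at 3.57 to 5.68 CPM in WT and 1.08 to 1.69 CPM in KO (-1.60 ± 0.19). Of 61 tested genes of the adhesion list, 4 fell and none rose. All KO libraries lay below all WT libraries for 20 of them (32.8%) and above for 1, where 6.52% of all tested genes lay below and 4.7% above. The median log2 fold change of the list was -0.14, against 0.01 over all tested genes. Csmd3, a relative of Csmd1, was at 68.0, 55.5 and 34.8 CPM in WT and at 28.2, 23.1 and 19.6 CPM in KO, and missed the threshold (-0.91 ± 0.14, adjusted p = 0.0693).

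Glutamate receptors had 3 of 24 tested members lower and none higher. Gria4, an AMPA receptor subunit, was at 63.05, 59.95 and 62.56 CPM in WT and at 35.3, 32.5 and 26.9 CPM in KO (-0.93 ± 0.10, adjusted p = 0.0173). Grm5, the metabotropic receptor mGluR5, was at 87.8, 106.7 and 87.7 CPM in WT and at 62.1, 53.3 and 52.5 CPM in KO (-0.68 ± 0.09, adjusted p = 0.0391). With Grin3a, these 3 genes cover the NMDA, AMPA and metabotropic classes. For 14 of the 24 (58.3%) every KO library lay below every WT library and for none above, against 6.52% and 4.7% of all tested genes. The list's median log2 fold change was -0.30. Across the other settings and with any library left out, that median stayed between -0.39 and -0.17.

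Among inhibitory receptors, 1 of 20 tested GABA and glycine receptor subunits was called lower and none higher. Gabra5, the alpha 5 subunit of GABA-A receptors, was at 16.6, 19.2 and 23.3 CPM in WT and at 10.9, 10.6 and 10.2 CPM in KO (-0.94 ± 0.13, adjusted p = 0.0485). The 3 KO libraries were nearly level, and the WT libraries spread more widely above them. For 13 of the 20 (65%) every KO library lay below every WT library, and the median log2 fold change was -0.30. No member of the 12 serotonin receptors passed the test, though 6 (50%) had all KO libraries below all WT libraries and 1 (8.33%) above, against 6.52% and 4.7% of all tested genes. Htr2c and Htr1b, the most abundant of them, were at -0.68 ± 0.29 and -0.34 ± 0.17.

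Potassium channel genes gave 2 of 39 tested members lower. Dpp10 (chr1:123321471-124045559, minus strand) encodes an auxiliary subunit of Kv4 channels. It was at 50.1, 41.2 and 50.4 CPM in WT and at 18.5, 17.1 and 17.3 CPM in KO, a wide gap with KO libraries almost level (-1.42 ± 0.10, adjusted p = 0.00474). Kcnb2, the Kv2.2 channel, went from 53.03, 52.17 and 37.45 CPM to 24.2, 22.6 and 20.7 CPM (-0.95 ± 0.09, adjusted p = 0.0106). Kcnd2, the Kv4.2 channel that Dpp10 protein binds, was at 60.78, 59.01 and 52.97 CPM in WT and at 39.1, 39.7 and 39.4 CPM in KO. Its groups did not overlap, yet it missed the threshold (-0.51 ± 0.07, adjusted p = 0.0587). For 14 of the 39 (35.9%) all KO libraries lay below all WT libraries, and for none above, against 6.52% and 4.7% of all tested genes. Among 42 sodium, calcium and other cation channels, Ryr3, which releases calcium from intracellular stores, fell (-1.06 ± 0.12, adjusted p = 0.0236). WT male 1 at 19.4 CPM and KO female 1 at 18.9 CPM were almost equal for Ryr3, and the other WT libraries were at 39.3 and 34.9 CPM and the other KO libraries at 9.86 and 7.58 CPM.

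On the presynaptic side 1 of 58 tested genes fell. Syt9 (chr7:107370728-107548656, plus strand), a calcium sensor of vesicle release, was at 16.49, 17.84 and 20.99 CPM in WT and at 5.52, 5.75 and 6.77 CPM in KO. All 3 KO libraries lay well under the lowest WT library (-1.68 ± 0.12, adjusted p = 0.00347). On the postsynaptic side 1 of 40 tested genes of the list fell. Dlgap1, a scaffold protein that binds PSD-95, was at 51.4, 60.7 and 50.7 CPM in WT and at 26.6, 24.8 and 26.5 CPM in KO (-1.02 ± 0.09, adjusted p = 0.00724). Syndig1, which associates with AMPA receptors and is not in that list, fell too and was at 7.41, 7.55 and 8.31 CPM in WT and at 3.88, 3.89 and 3.68 CPM in KO (-1.04 ± 0.13, adjusted p = 0.0373).

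The cAMP pathway had 2 of 33 tested genes lower, both of them adenylyl cyclases, which make cAMP. Adcy8 (chr15:64697084-64922296, minus strand), a calcium-stimulated form, was at 18.1, 13.4 and 16.9 CPM in WT and at 4.65, 4.90 and 4.33 CPM in KO (-1.81 ± 0.15, adjusted p = 0.00644). Adcy2 was at 19.3, 18.0 and 23.2 CPM in WT and at 7.89, 6.37 and 5.02 CPM in KO (-1.63 ± 0.19, adjusted p = 0.0339). Neither gene had a KO library near the WT range. The median over the pathway was -0.09, and its remaining 31 tested members did not pass.

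Signalling molecules of other kinds were also among the genes that fell. Nrg3, a neuregulin that signals through the ErbB4 receptor, went from 45.4, 40.5 and 27.9 CPM to 23.1, 14.7 and 15.8 CPM (-0.87 ± 0.08, adjusted p = 0.0101). It was the 1 called gene of 7 tested neuregulins and ErbB receptors. All 7 had a negative fold change, at a median of -0.34. For 3 of them (42.9%) all KO libraries lay below all WT libraries, against 6.52% of all tested genes. Erbb4 itself was at the small end of the list, at -0.08 ± 0.11. Epha6, a receptor of ephrins, was the 1 gene of 40 for axon guidance that fell (-1.19 ± 0.16). Jak1, the cytokine receptor kinase, was at 111.0, 94.8 and 111.6 CPM in WT and at 65.6, 67.0 and 66.4 CPM in KO (-0.69 ± 0.08). The largest fold change among the 34 belonged to Ptchd4, which encodes a patched-domain protein, at 9.42, 7.02 and 6.80 CPM in WT and 1.21, 1.14 and 1.66 CPM in KO (-2.50 ± 0.24, adjusted p = 0.00983). Neurod4, a neurogenic transcription factor, was at 3.80, 5.04 and 4.92 CPM in WT and at 1.28, 1.10 and 1.19 CPM in KO (-1.94 ± 0.21, adjusted p = 0.0160). It was the only one of 12 tested intermediate progenitor and neurogenic genes that passed, and the summed level of that list overlapped (374.9 to 571.3 CPM in WT, 504.7 to 570.9 CPM in KO). Ugt8a, the enzyme that makes the galactolipids of myelin, was at 5.58, 5.32 and 5.47 CPM in WT and at 2.01, 2.06 and 1.49 CPM in KO (-1.53 ± 0.19, adjusted p = 0.0322). It was the only one of 14 tested oligodendrocyte lineage genes that passed, and that list's sum was 174 to 192.2 CPM in WT and 157 to 175.7 CPM in KO.

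Non-clustered protocadherins, which are adhesion molecules encoded outside the protocadherin clusters described below, had 3 of 12 tested members lower. Pcdh11x was at 69.2, 58.7 and 56.6 CPM in WT and at 27.0, 29.0 and 27.1 CPM in KO (-1.12 ± 0.10). Pcdh7 was at 131.6, 124.0 and 101.3 CPM in WT and at 72.8, 69.2 and 64.0 CPM in KO (-0.70 ± 0.08), and Pcdh15 was at -1.26 ± 0.14. The adjusted p of the 3 were 0.00724, 0.0189 and 0.0202. The remaining genes that fell were March1, Cyp4x1, St6gal2, Khdrbs2, AF529169, Sptb, Slc7a14, AW551984 and Otud7a, with log2 fold changes between -1.34 and -0.60. Among them, March1 encodes a ubiquitin ligase, St6gal2 a sialyltransferase of the nervous system, Khdrbs2 a splicing regulator and Sptb a beta spectrin.

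**Figure D2:**
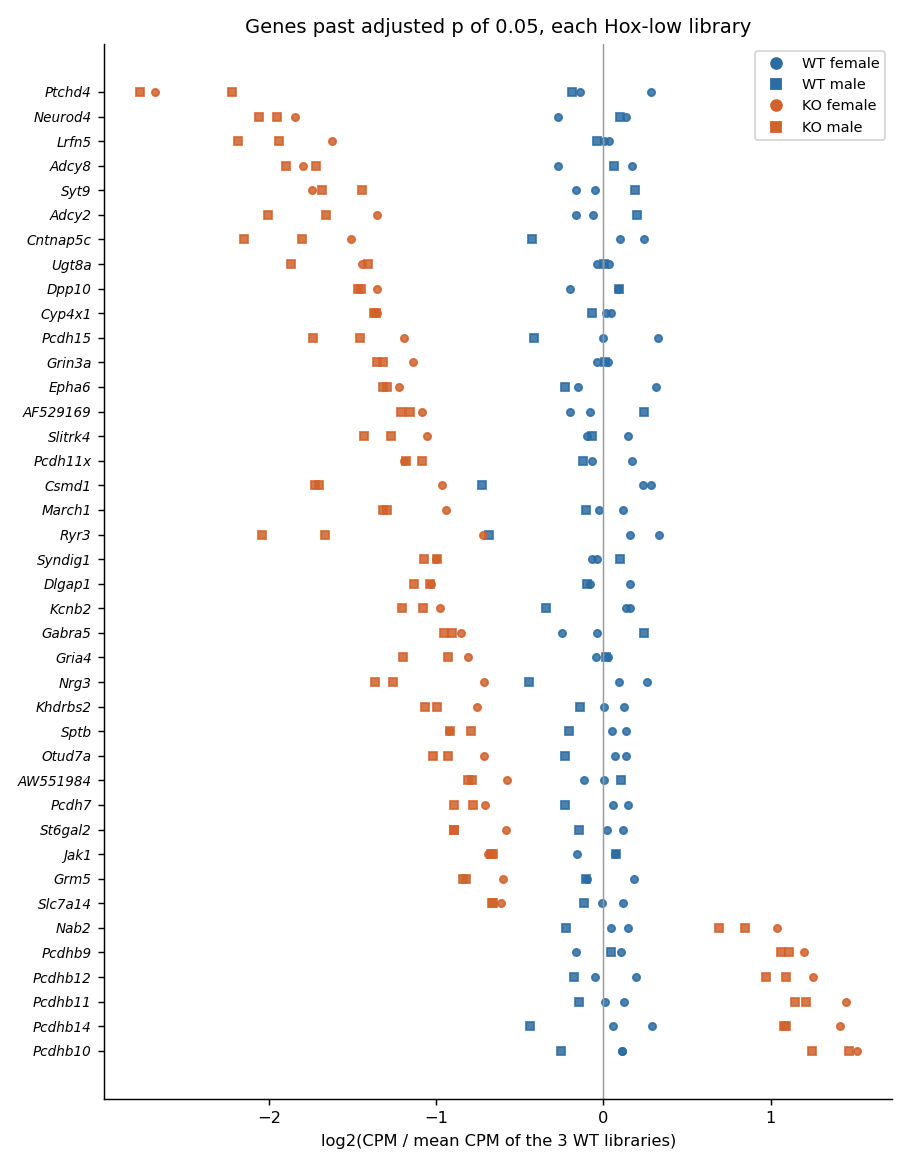
The 34 genes that fell and 6 of those that rose past an adjusted p of 0.05 in Hox-low brain, with log2 of each library's CPM over the mean CPM of the 3 WT libraries on the horizontal axis. Blue is WT, orange is KO, circles are females and squares are males. For all 34 genes that fell the KO libraries lie to the left of the WT libraries, narrowly so for Ryr3 (18.9 against 19.4 CPM), and for the 6 shown that rose they lie to the right.

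The clustered protocadherins lie in 3 neighbouring arrays on chromosome 18, and neurons choose among their promoters, so that single cells carry different sets of these adhesion molecules. Beta genes each have their own coding exon, while alpha and gamma genes each join a variable exon to exons shared by their cluster. Of 21 tested beta genes, 5 rose (Pcdhb9, Pcdhb10, Pcdhb11, Pcdhb12 and Pcdhb14) and none fell. Pcdhb11 was at 6.46, 5.95 and 5.36 CPM in WT and at 16.2, 13.1 and 13.7 CPM in KO (1.36 ± 0.11, adjusted p = 0.00514). Pcdhb14 was at 9.22, 7.83 and 5.56 CPM in WT and at 20.13, 16.04 and 15.91 CPM in KO (1.39 ± 0.12, adjusted p = 0.00724). Pcdhb10 had the largest change of the 5, from 4.06, 4.05 and 3.16 CPM to 10.7, 8.94 and 10.4 CPM (1.52 ± 0.14, adjusted p = 0.00822). In each of these genes the lowest KO library was above the highest WT library.

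The shift ran along the whole beta array. For 19 of 21 genes (90.5%) all KO libraries lay above all WT libraries, where 4.7% of all tested genes did, and the exceptions were Pcdhb4 and Pcdhb22. The fold changes were 0.10 to 1.52 with a median of 0.75. The 5 genes that passed lie among the 6 from Pcdhb9 to Pcdhb14. Pcdhb13, between them, was at 1.40 ± 0.23 with an adjusted p of 0.0943. The list's median stayed positive in every other setting, from 0.53 without WT male 1 to 1.04 without KO female 1. Beta genes are close copies of each other, and 3 further annotated genes overlap each of the 5 that passed on the same strand. The reads given to single members are thus uncertain.

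Alpha and gamma genes did not share this direction. None of 13 alpha and 21 gamma genes passed the test. In the alpha cluster the KO libraries lay all below WT for 6 genes (46.2%) and all above for 3 (23.1%), and in the gamma cluster for 7 (33.3%) and 1 (4.76%), where 6.52% and 4.7% of all tested genes did. Pcdha7, the most abundant alpha gene, was at 24.3, 23.3 and 18.5 CPM in WT and at 32.2, 32.0 and 29.7 CPM in KO (0.60 ± 0.09, adjusted p = 0.0734). Its neighbour Pcdha6, picked after its values were seen, was at 15.6, 18.5 and 16.1 CPM in WT and at 8.46, 8.04 and 11.4 CPM in KO (-0.86 ± 0.17, adjusted p = 0.162). In the gamma cluster Pcdhgc3, the most abundant, was at 113.5 to 123.6 CPM in WT and 131.6 to 146 CPM in KO (0.20 ± 0.07). Pcdhgb8 varied widely among the KO libraries, at 5.95, 30.0 and 58.0 CPM, against 63.5 to 84.0 CPM in WT. Because alpha and gamma transcripts share exons, how the counting split reads among them could move these values.

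**Figure D3:**
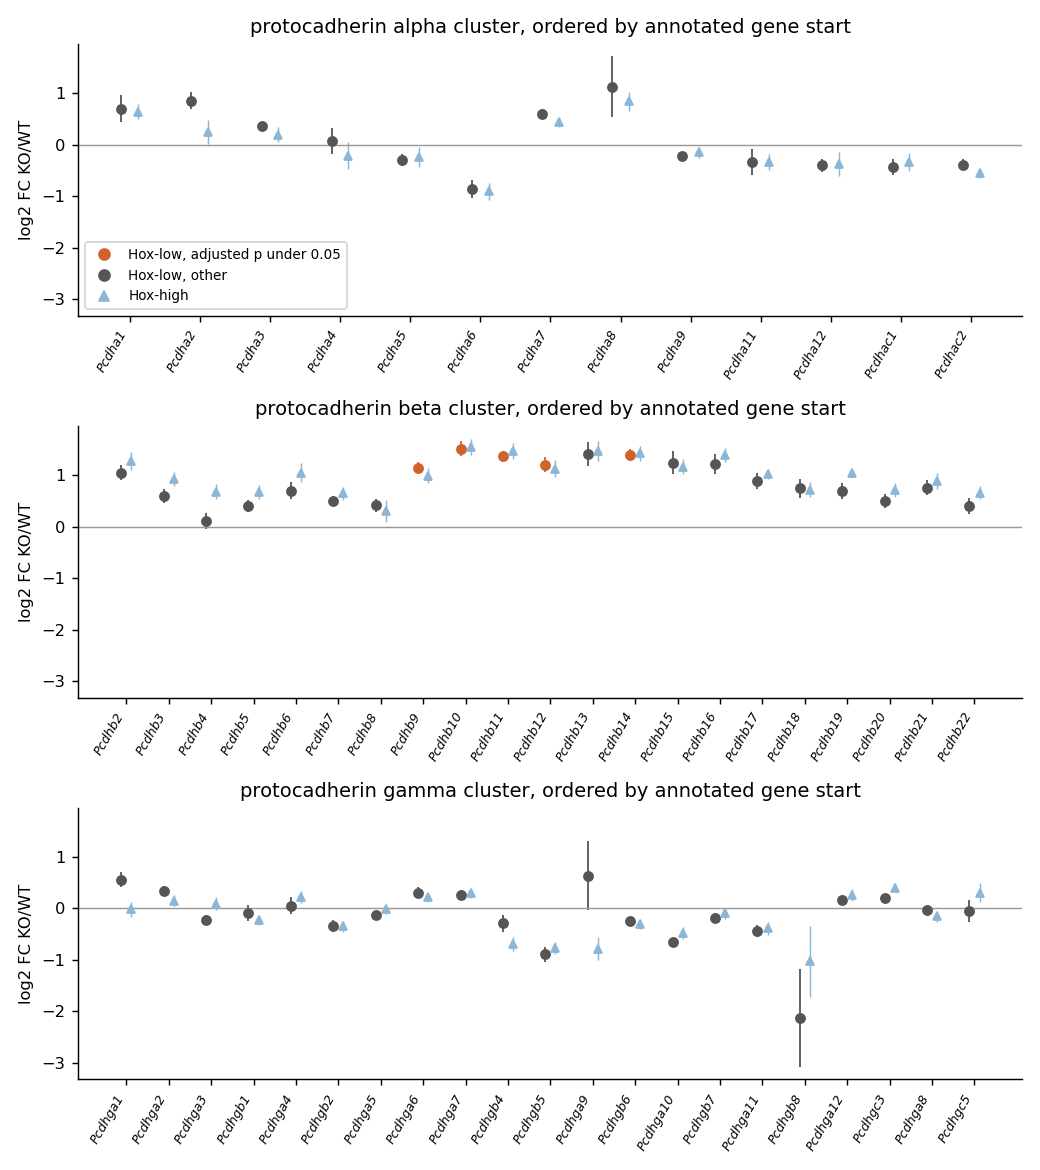
Log2 fold change, KO over WT, with its standard error for the tested genes of the protocadherin alpha, beta and gamma clusters, ordered by annotated gene start. An exception is the point named Pcdhga8, which stands after Pcdhgc3, whereas the annotation lists that name between Pcdhgb4 and Pcdhgb5. Circles are Hox-low (orange past an adjusted p of 0.05) and triangles are Hox-high. All 21 beta genes lie above 0 in Hox-low, from 0.10 to 1.52, while alpha and gamma genes lie on both sides.

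Outside the protocadherins, Nab2 rose. Nab2, a corepressor of the EGR transcription factors, was at 5.63, 6.06 and 4.69 CPM in WT and at 11.2, 9.83 and 8.80 CPM in KO (0.97 ± 0.12, adjusted p = 0.0322). It was the 1 gene of 19 tested activity-regulated genes that passed, and Arc, Egr1 and Fos from the same list were at 0.18 ± 0.27, 0.41 ± 0.18 and 0.62 ± 0.36. Of the 19, 6 had a negative fold change, down to -0.84. The list's median was 0.18 in Hox-low and -0.09 in Hox-high. Nab2 overlaps Stat6 and Nemp1 on the opposite strand.

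No member passed the threshold among 18 tested p53 targets, 32 cell cycle and DNA replication genes, 11 POU factors and 18 neighbours of Nsd2 on chromosome 5. Their median log2 fold changes were 0.04, 0.11, -0.07 and 0.05. The nearest neighbour, Nelfa, which overlaps Nsd2 on the opposite strand, was at 26.2, 31.5 and 31.3 CPM in WT and at 31.8, 34.1 and 36.7 CPM in KO (0.17 ± 0.09, adjusted p = 0.792). The 3 KO libraries were above WT by a narrow margin. Sorbs2, an adaptor of the actin cytoskeleton, was at 150 to 209.9 CPM in WT and 175.4 to 189.9 CPM in KO, with overlap (0.06 ± 0.12, adjusted p = 0.930). Pou2f2, a POU transcription factor, was at 59.6 and 61.4 CPM in the WT females, 12.2 CPM in the WT male, 37.2 CPM in the KO female and 34.95 and 31.55 CPM in the KO males. Its KO libraries thus lay between the WT females and the WT male, and the shared fold change was 0.36 ± 0.63 (adjusted p = 0.931).

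**Figure D4:**
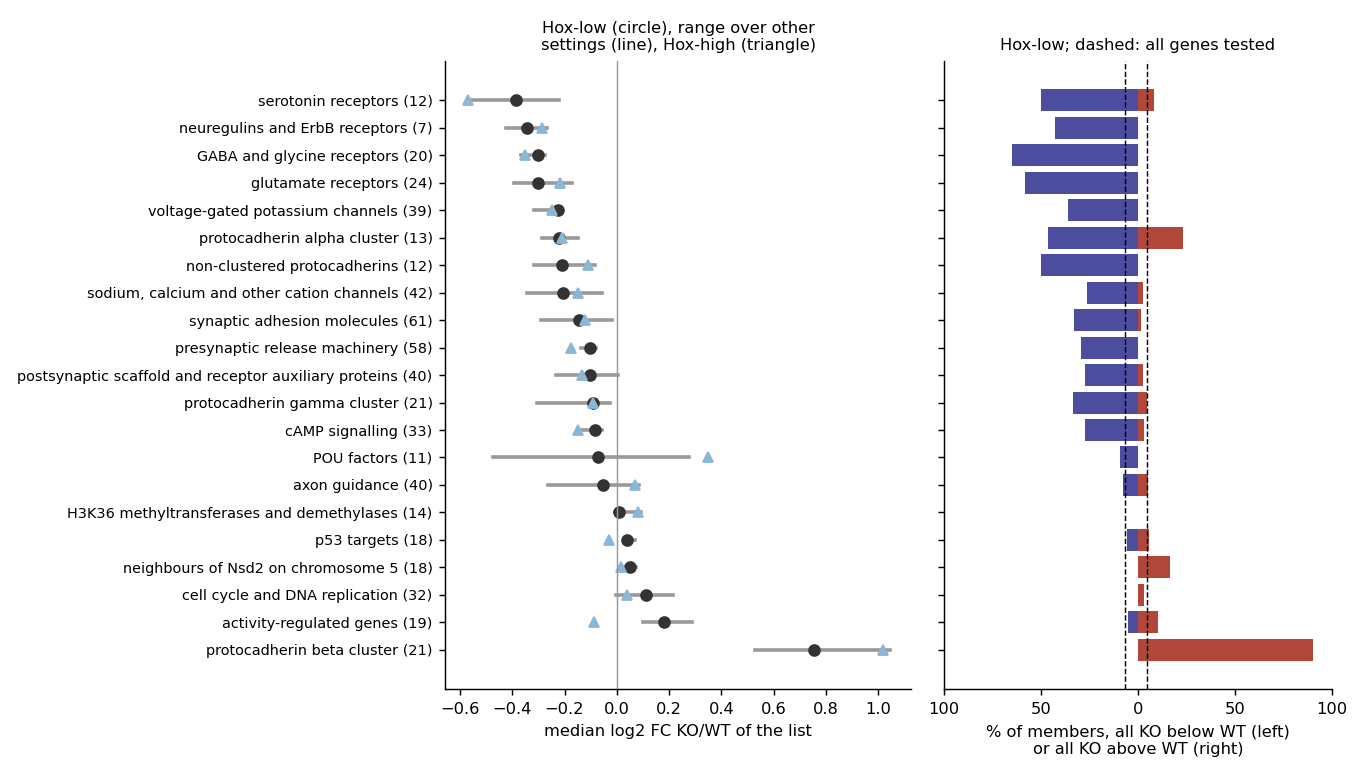
Pathway and family lists, with the number of tested genes in brackets. Left: the median log2 fold change, KO over WT, in Hox-low (circles), its range over the other settings and left-out libraries (lines) and the median in Hox-high (triangles). Right: the share of members with all KO libraries below (blue) or above (red) all WT libraries in Hox-low, with dashed lines at the 6.52% and 4.7% of all tested genes. GABA and glycine receptors reach 65% below, and the protocadherin beta cluster 90.5% above.

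Many of the genes that fell had a long genomic span, a feature that the choice of libraries did not use. Their median span, from annotated start to end in GENCODE M21, was 324.7 kb against 18.0 kb over all tested genes. Spans over 500 kb belonged to 11 of the 34 (32.4%) against 1.18% of all tested genes, the longest being Csmd1 at 1643 kb. Spans over 100 kb belonged to 27 of the 34 (79.4%) against 12.8%, and Neurod4 (12.1 kb), Slitrk4 (12.1 kb) and AW551984 (17.0 kb) were shorter than the median of all tested genes. The 7 genes that rose had a median span of 4.42 kb. Among the 222 tested genes over 500 kb, 11 fell and none rose (4.95% lower), and 38.3% had all KO libraries below all WT libraries and 0% above. The median log2 fold change went from 0.03 for genes up to 10 kb through 0.01 and -0.05 to -0.18 for genes over 500 kb. The corresponding medians in Hox-high were 0.01, 0.01, -0.02 and -0.11. The genes over 500 kb were also more abundant, with a median of 34.6 CPM against 2.604 CPM for those up to 10 kb, and the part of abundance or of RNA quality in this gradient was not tested.

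The Hox-high libraries share no library with the Hox-low ones and so give an independent measure of the same genes. There the WT group held female 3, male 2 and male 3, and the KO group held female 2, female 3 and male 2. All 34 genes that fell in Hox-low had a negative fold change in Hox-high, where 11638 of 18504 genes tested in both had the same sign. Of the 34, 33 had an unadjusted p under 0.05 in Hox-high (the share of lower genes at that p was 4.05%) and 32 had all KO libraries below all WT libraries (7.1% of genes tested there). None passed the adjusted threshold there. The median log2 fold change was -1.09 in Hox-low and -1.03 in Hox-high. The 7 genes that rose were all higher in Hox-high KO, at a median of 1.12 against 1.36, all 7 had an unadjusted p under 0.05 (2.17% of genes tested were higher at that p) and groups apart (5.97%), and 3 of them passed. Those 3 were Pcdhb10, Pcdhb11 and Pcdhb14.

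In number, 1 of 18912 genes tested fell in Hox-high (0.00529%) and 8 rose (0.0423%), or 140 (0.74%) and 49 (0.259%) with DESeq2, with a common biological coefficient of variation, the replicate spread relative to the mean, of 0.182 against 0.156 in Hox-low. A test of the difference between the effects, the interaction of genotype with Hox class over 12 libraries, called 1 of 19767 genes (0.00506%) and none of the 41. The smallest adjusted p among them was 1. At an unadjusted p under 0.05, 4 of the 34 and 1 of the 7 differed, against 1.94% of all genes tested. The 41 genes were called on their Hox-low values, a choice that favours larger effects there, so nothing is read from these counts or from the 2 medians. Ptchd4 was at -2.50 ± 0.24 in Hox-low and -1.40 ± 0.25 in Hox-high, and Adcy8 at -1.81 ± 0.15 and -1.20 ± 0.15. Lrfn5 was at -1.82 ± 0.11 and -1.69 ± 0.18, and Dlgap1 at -1.02 ± 0.09 and -1.31 ± 0.25.

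**Figure D5:**
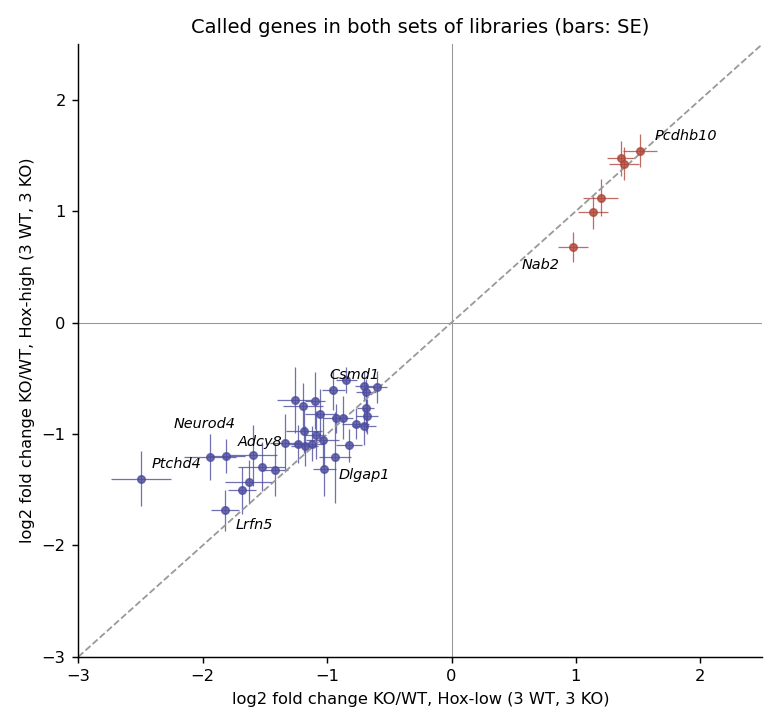
Log2 fold change between KO and WT for the 34 genes that fell and 6 of those that rose in Hox-low (horizontal) and in Hox-high (vertical), with standard errors as bars and equality as a dashed line. All 34 genes that fell lie in the lower left and the 6 that rose in the upper right. Ptchd4 (-2.50 and -1.40) lies farthest from equality.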

How the data were processed

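Total RNA of E15.5 brains was rRNA-depleted and sequenced. The extent of the dissection is not given in the sources used here, nor is which of the study's kits and sequencers made each library. The authors trimmed reads to 75 bases, then used cutadapt 2.6, HISAT2 2.1.0 on mm10 and StringTie 2.0.6 with Ensembl annotation, and deposited whole-number gene counts in 1 table for females and 1 for males. The kit keeps strand; the strand setting of the counting is not given in the sources used here, so overlapping genes on opposite strands may share reads.

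Both tables were joined on gene identifier (46078 genes). CPM were scaled by TMM factors over 12 libraries. Genes were filtered with edgeR's filterByExpr (minimum count 10, minimum total 15) and tested in R 4.3.3 with edgeR 4.0.16 (quasi-likelihood F test, TMM, robust fit, sex and genotype as terms) on the 6 Hox-low libraries, separately on the 6 Hox-high libraries, and on all 12 for the interaction. Nsd2 was left out of all counts of genes. P-values measure the spread between these libraries, 1 embryo each. DESeq2 1.42.0, other scalings, filters, covariates, a replicate block and leaving out each library were tried, and the scripts were tested on simulated data. Totals were 40398665 to 58904269 counts per Hox-low library, and each gene that fell had at least 53 counts in every Hox-low library. No library matched another within sampling noise. Spans are from GENCODE M21 (GRCm38).

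Genes were named by rule: Nsd2, Actb, 9 genes the study names, called genes (up to 35 lower and 15 higher by smallest p), of each pathway or family list among the 40 lists up to 4 called members or else the 2 most abundant, and called genes of the Hox-class difference. Gm9855, Ttc30a2, Erbb4, Pcdha6, Pcdhb13, Nelfa, Arc, Egr1 and Fos were added after their values were seen. The libraries, lists and rules were chosen with earlier results of these data known. Comparisons within lists are counts and medians, with no test of the list. Results for 1 called gene are not reported here.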

Additional observations from a re-analysis of the deposited data

Results flagged for a closer look

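The interaction of genotype with Hox class called 1 of 19767 genes (0.00506%), AK157302, with a log2 difference of 10.13 between the Hox-low and Hox-high effects (edgeR quasi-likelihood test, adjusted p = 0.0440). It was listed at 0 in all 6 female libraries, whatever the genotype. In males it was at 7.01 CPM in WT and 6.94 and 6.21 CPM in KO among Hox-low libraries, and at 7.75 and 7.55 CPM in WT and 0 in KO male 2 among Hox-high libraries. Against a floor of 3 counts in KO male 2 (0.0529 CPM), the Hox-high WT male mean of 7.65 CPM was at least 145-fold higher. The fitted difference rests on that 1 library and depends on the prior count, so it is no bound.

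Within the Hox-low libraries, the effect of genotype on Pou2f2 differed between sexes by a test added after the data were seen, the interaction of sex with genotype (male minus female log2 difference 2.14 ± 0.15, edgeR adjusted p = 0.0167). The KO female was below both WT females and both KO males were above the WT male, and the sex-wise log2 differences were -0.70 and 1.45. In the Hox-high libraries Pou2f2 was at 34.9 CPM in the WT female, 12.6 and 43.4 CPM in the KO females, 11.7 and 10.2 CPM in the WT males and 34.3 CPM in the KO male. That test called 15 of 18896 genes (0.0794%), Pou2f2 being the only one of them among the genes named by rule, and it has 1 KO female and 1 WT male.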

How the results depend on the processing

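The counts of genes that fell and rose (34 and 7) were 33 and 7 with RLE scaling, 35 and 7 with library totals, 28 and 6 without a filter and 37 and 7 with a filter of more than 1 CPM in 3 libraries. They were 190 and 45 with DESeq2 and 149 and 31 with edgeR's likelihood ratio test, each including all 34 and all 7. With the spread taken over all 12 libraries they were 72 and 14, and without the sex term 14 and 3. With the sex term kept, leaving out KO female 1 leaves only the males to give the genotype effect, and leaving out WT male 1 only the females. Leaving out each library gave 2 to 26 lower and 0 to 15 higher genes. The lowest came without KO female 1 (2 and 0, Lrfn5 and Grin3a), then KO male 1 (6 and 0), KO male 3 (10 and 1), WT male 1 (14 and 15, of which 4 and 1 were shared), WT female 2 (22 and 5) and WT female 1 (26 and 7). In Hox-high, DESeq2 gave 140 lower and 49 higher genes against 1 and 8, and for the difference it gave 3 against 1 (D430001F17Rik, Rnu3b2 and Mtif3); the cause was not tested. The replicate numbers did not pair the samples (same-number correlations of deviations -0.07 to 0.17 in females and -0.06 to 0.29 in males), and a fit with them as a block gave 43 and 9, of which 25 and 4 were shared. Reversed signs were limited to genes that did not pass. Sorbs2 (-0.0040), Pou2f2 (-0.35), Nsd1 (-0.011), Setd2 (-0.015) and AK157302 (0.90) turned without the sex term; Nsd1 (-0.0081) and Ccnd2 (-0.00326) with library totals; Nsd1 (-0.0040) with the 1 CPM filter; Nsd1 (-0.049) and Setd2 (-0.019) with the spread over 12; and Ccnd2 (-0.020) under the block. With each library left out, the log2 fold change ranged from -0.16 to 0.29 for Sorbs2, -0.69 to 1.45 for Pou2f2, -0.22 to 0.22 for Nsd1, -0.17 to 0.19 for Setd2, -0.21 to 0.063 for Trp53bp1, -0.0080 to 0.19 for Plk2, -0.16 to 0.17 for Ccnd2 and -0.26 to 0.15 for Htt, with the lowest value without WT male 1 and the highest without KO female 1. Those fits give the genotype effect of females alone and of males alone. For each of these genes the sex-wise log2 difference was negative in females and positive in males. No called gene changed direction in any setting. List medians kept their sign in every setting for glutamate receptors, GABA and glycine receptors, potassium channels, adhesion molecules (-0.29 to -0.02) and protocadherin beta genes, and not for postsynaptic proteins, which reached 0.0038 without KO female 1, axon guidance (-0.26 to 0.08), POU factors (-0.47 to 0.28), H3K36 enzymes (-0.0083 to 0.094) or cell cycle genes, which reached -0.0015 without WT female 1.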
